A study of Mus musculus with 4 samples.

Results

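Inside genes of activated mouse B cells, 3923 stretches of chromatin enriched for histone H3 lysine 4 (H3K4) methylation lay away from annotated promoters. They are called intragenic distal islands here and make up 15.7% of the 24957 islands found in the series. To find islands, the reads of both libraries were pooled with their 5′ ends shifted by 75 bp in the read direction, and 200 bp windows with 9 or more reads were joined over gaps of up to 200 bp. Islands with 20 or more reads were kept. An island was counted as intragenic distal when it lay over 5 kb from every transcription start site (TSS) of the GENCODE vM1 annotation (mouse build NCBIM37, also called mm9) and its midpoint fell inside a protein-coding gene. The islands were thus chosen by the pooled read number and by position, and their levels are a description. The ratio of knockout to wild type was not used to choose them.

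The study compared histone modifications in B cells of PA1 knockout (PA1-KO) and wild-type (PA1-WT) mice. B cells were taken from spleens of mice 6 to 14 weeks old by removing cells that carry CD43, and all were cultured for 2 days with lipopolysaccharide (LPS) at 25 μg/ml plus either an antibody to IgD coupled to dextran or interleukin 4; the labels do not say which of these was used for the libraries described here. Native chromatin of 10000000 cells, cut to single nucleosomes with micrococcal nuclease, was precipitated with an antibody labelled only H3K4, and no source used here gives the methylation state it recognised. There was 1 library per genotype, and the labels do not say how the PA1 allele was made or how many mice were used. A further pair of libraries, labelled H3K4me4, was not analysed here.

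PA1 is a small protein that works with PTIP, and both belong to the complexes of the histone methyltransferases MLL3 and MLL4. Those enzymes place much of the H3K4 methylation at enhancers, the regulatory elements that lie at a distance from promoters and often inside introns of the genes they control or of neighbouring genes. Promoters of expressed genes carry mostly trimethylated H3K4, whereas enhancers carry mostly monomethylated H3K4. In B cells, large clusters of such elements lie in and around the genes for lineage transcription factors and for antigen receptor signalling.

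The knockout library held 5259995 reads on the nuclear chromosomes and the wild-type library 5539475, each 25 bases long. Promoter islands, within 1 kb of a TSS, took 62.0% of the knockout and 64.4% of the wild-type reads, and the intragenic distal islands took 3.77% and 3.83%. Ratios are given after scaling to promoter windows (a knockout library factor of 0.876 relative to wild type), with an exact 95% Clopper-Pearson interval that covers counting error only. No test across animals was possible, and a difference between these libraries has no replicate check. A ratio was called higher or lower when it reached 1.5-fold in either direction and its interval excluded 1. B cell marker genes carried signal at all 18 of their promoters, with medians of 391.5 reads in the knockout and 402 in wild type, against medians of 1.5 and 2 reads for 18 T cell markers and 2 and 3 reads for 18 myeloid markers. Not all of the latter were empty: 2 T cell and 4 myeloid marker promoters held 50 or more reads. The gene for PA1 itself (2900092E17Rik in vM1, chr7:134144996-134163841) held 340 knockout and 520 wild-type reads over its annotated length, a ratio of 0.746 (0.649 to 0.857). No source used here gives the deleted part, so these reads do not check the genotype.

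Sequences of the most densely covered 300 bases are shown for 7 islands. They were taken from the NCBIM37 genome: the strongest islands of genes rich in islands (Eif4e3, Hivep2, Ets1, Foxp1), an island read only in the knockout library (Agbl4), and a pair read mostly in wild type (Plek, Dedd2). Capitals mark matches, on either strand, to short motifs that B cell transcription factors are known to bind: AGGAAGT for ETS factors, TGTGGTT for RUNX, TGANTCA for AP-1, CAGGTG for E-box proteins, CCCNNGGG for EBF, GGGANTTCC for NF-kB and GAAANNGAAA for IRF proteins. The ETS-IRF composite GGAANNGAAA and the OCT motif TGCAAAT were also searched, and matches of different motifs may overlap.
Eif4e3 intronic island, chr6:99287741-99288040, plus strand: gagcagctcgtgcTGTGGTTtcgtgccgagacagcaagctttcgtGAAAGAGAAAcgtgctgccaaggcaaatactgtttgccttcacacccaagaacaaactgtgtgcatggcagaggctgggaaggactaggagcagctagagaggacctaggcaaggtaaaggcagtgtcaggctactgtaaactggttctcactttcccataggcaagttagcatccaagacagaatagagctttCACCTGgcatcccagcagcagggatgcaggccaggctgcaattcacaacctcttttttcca
Hivep2 intronic island, chr10:13805971-13806270, plus strand: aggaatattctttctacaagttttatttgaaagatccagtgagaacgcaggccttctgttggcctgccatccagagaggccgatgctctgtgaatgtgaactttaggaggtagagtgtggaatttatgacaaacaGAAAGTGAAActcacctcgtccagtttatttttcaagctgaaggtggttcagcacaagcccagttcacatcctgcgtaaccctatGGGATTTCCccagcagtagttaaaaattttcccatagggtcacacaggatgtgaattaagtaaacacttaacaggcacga
Ets1 intronic island, chr9:32528171-32528470, plus strand: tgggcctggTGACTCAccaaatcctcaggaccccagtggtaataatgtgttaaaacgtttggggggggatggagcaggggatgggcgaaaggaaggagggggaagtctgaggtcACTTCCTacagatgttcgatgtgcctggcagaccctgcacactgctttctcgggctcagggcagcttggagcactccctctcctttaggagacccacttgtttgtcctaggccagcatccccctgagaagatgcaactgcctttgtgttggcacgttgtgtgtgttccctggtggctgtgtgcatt
Foxp1 intronic island, chr6:99046071-99046370, plus strand: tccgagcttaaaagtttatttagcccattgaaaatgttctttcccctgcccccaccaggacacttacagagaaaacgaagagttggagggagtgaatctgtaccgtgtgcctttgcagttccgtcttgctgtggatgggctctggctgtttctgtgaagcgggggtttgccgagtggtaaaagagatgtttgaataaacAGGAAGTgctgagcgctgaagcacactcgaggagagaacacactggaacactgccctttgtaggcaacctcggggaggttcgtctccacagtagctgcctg
Agbl4 intronic island, chr4:110345431-110345730, plus strand: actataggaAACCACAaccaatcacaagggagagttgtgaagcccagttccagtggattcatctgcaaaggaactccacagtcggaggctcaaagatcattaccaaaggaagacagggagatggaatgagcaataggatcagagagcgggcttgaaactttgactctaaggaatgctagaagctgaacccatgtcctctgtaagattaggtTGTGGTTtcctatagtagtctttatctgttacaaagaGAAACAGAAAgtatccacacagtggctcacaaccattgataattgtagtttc
Plek intronic island, chr11:16878311-16878610, plus strand: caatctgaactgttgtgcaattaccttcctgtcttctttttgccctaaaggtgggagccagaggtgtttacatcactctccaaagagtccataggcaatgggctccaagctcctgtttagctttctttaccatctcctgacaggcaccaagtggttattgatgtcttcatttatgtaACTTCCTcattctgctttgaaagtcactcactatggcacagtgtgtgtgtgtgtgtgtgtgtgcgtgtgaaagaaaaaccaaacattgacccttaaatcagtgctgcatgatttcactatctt
Dedd2 intronic island, chr7:25990121-25990420, plus strand: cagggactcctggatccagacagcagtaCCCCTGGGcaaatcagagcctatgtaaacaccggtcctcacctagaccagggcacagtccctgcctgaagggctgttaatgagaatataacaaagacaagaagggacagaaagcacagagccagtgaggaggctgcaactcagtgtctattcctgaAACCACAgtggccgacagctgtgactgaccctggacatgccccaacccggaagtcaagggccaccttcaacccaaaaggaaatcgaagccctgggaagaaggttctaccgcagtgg

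The Eif4e3 window held 1 match each to the RUNX, IRF and E-box motifs, with 96 knockout and 84 wild-type reads in the window. The Hivep2 window held an IRF and an NF-kB match and 56 reads in each library. In Ets1, which encodes an ETS factor, the window held an AP-1 and an ETS match, with 35 knockout and 45 wild-type reads. A match is a run of letters and not a shown binding site.

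Over all 3923 islands, AGGAAGT occurred in 14.6% of the densest 300 bp windows. The share was 7.41% in windows 3 kb to either side, 7.61% in promoter islands and 9.35% in 32851 promoters of the same length from the RefSeq table (build GRCm38.p6). GAAANNGAAA occurred in 9.69% of the intragenic distal windows, against 4.10% at the sides, 3.86% of promoter islands and 3.44% of RefSeq promoters. The composite GGAANNGAAA stood at 4.74% against 3.00% at the sides. TGTGGTT occurred in 9.84%, against 7.81% at the sides and 4.69% of promoter islands. CCCNNGGG was found in 9.05%, above the 6.55% of the sides and below the 14.0% of promoter islands. TGANTCA (9.99%), CAGGTG (22.7%), TGCAAAT (5.00%) and GGGANTTCC (1.43%) stood at 9.38%, 19.9%, 4.61% and 0.918% in the side windows. Intergenic distal islands had 14.6% for AGGAAGT, 9.69% for GAAANNGAAA, 8.55% for TGTGGTT, 10.8% for CCCNNGGG and 2.16% for GGGANTTCC. The median of the log2 ratio of knockout to wild type was 0.10 for the 380 islands with GAAANNGAAA and -0.02 for the 3543 without it, and -0.17 for the 355 with CCCNNGGG against 0.00 without it. Base composition moved with the ratio, as described further on.

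Most islands were short and modest. The median island was 600 bp long (quartiles 400 and 1000 bp) and held 58 reads (quartiles 33 and 115), against 1800 bp and 428 reads for promoter islands and 600 bp and 63 reads for the 4584 intergenic distal islands. Only 296 islands (7.55%) reached 2 kb and 83 held 500 or more reads. Those 83 held 17.2% of the reads in all intragenic distal islands. At the edges of the rule, 85 islands had exactly 20 reads and another 77 candidates had 19. The island nearest above 5 kb lay in Anp32b at 5.002 kb, with 18 knockout and 26 wild-type reads. The nearest below it lay in Ubac2 at 4.996 kb, with 26 and 36 reads.

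The DNA under the islands differed from that of promoters. Their median GC content was 47.5% against 53.3% for promoter islands, and the ratio of observed to expected CpG was 0.264 against 0.588. Only 100 islands (2.55%) had both a GC content of 55% or more and a CpG ratio of 0.6 or more, a common description of a CpG island, compared with 24.7% of promoter islands. By midpoint, 3644 islands (92.9%) were in introns, 154 in coding exons and 113 in untranslated regions. The first intron held 1390 of them (35.4%) and the second intron 737 (18.8%). The median distance to the nearest TSS was 15.6 kb and the longest 429 kb. Another island lay within 10 kb of 1570 of them (40.02%), and the median gap to the nearest was 21.2 kb.

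The islands lay in 2107 of 22367 protein-coding genes (9.42%). Of these hosts, 1317 held 1 island, 372 held 2, 284 held 3 or 4 and 134 held 5 or more; 14 genes had 10 or more. Host genes were long, with a median of 76.7 kb against 15.4 kb for all protein-coding genes, and 82.5% of them had a promoter with 50 or more reads, against 54.5% of all. A set of 271 hosts, with 377 islands, had fewer than 20 reads at the promoter.

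The hosts with most islands included several genes for transcription factors and kinases. Prkce, which encodes protein kinase C epsilon, held 21 islands. Bach2, a transcription factor that holds back plasma cell differentiation, held 18, and Foxp1, Arid1b and Ebf1 held 14 each. Ebf1 is a factor needed to specify B cells, and Arid1b encodes a subunit of the BAF chromatin remodelling complex. Camk2d (a calcium/calmodulin-dependent kinase), Hivep2 (a zinc finger protein) and Ets1 held 11 each, and Tcf4, which encodes the E protein E2-2, held 10, as did Lnpep and Mtss1, which had fewer reads in their islands. The other hosts among the 12 were Gm20388 with 39, Eif4e3 with 15 and Fgfr2 with 13.

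For those last hosts the number follows the gene model. Gm20388 in vM1 is a single model of 4435 kb on chromosome 8 that spans other genes, and it kept 28 islands when each island was given to its shortest host alone. Fgfr2 spans 3009 kb in vM1 and 104 kb in the RefSeq table. Eif4e3 spans 409 kb in vM1 and 71.0 kb in RefSeq, whereas Foxp1, the neighbouring gene, spans 341 kb in vM1 and 597 kb in RefSeq, so the host of the islands counted for Eif4e3 depends on the gene model. Coordinates of the builds were not converted. Distances to a TSS follow the same vM1 models, and starts absent from vM1 were not considered. An island counted as distal may thus lie at such a start. The island counted for Eif4e3 at chr6:99470201-99473800, with 61.8% GC and 246 knockout against 384 wild-type reads, was not checked for this. With each island given to its shortest host, all of the 12 genes except Fgfr2 still had 10 or more. Ranked by islands per 100 kb among genes with 5 or more, only Ets1 (9.05) of the 12 was among the densest 12, which were led by Dcun1d1 (11.2), Plekha2 (11.1), Coro2a (10.7), Lnpep (10.3) and B4galt1 (10.1).

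**Figure D1:**
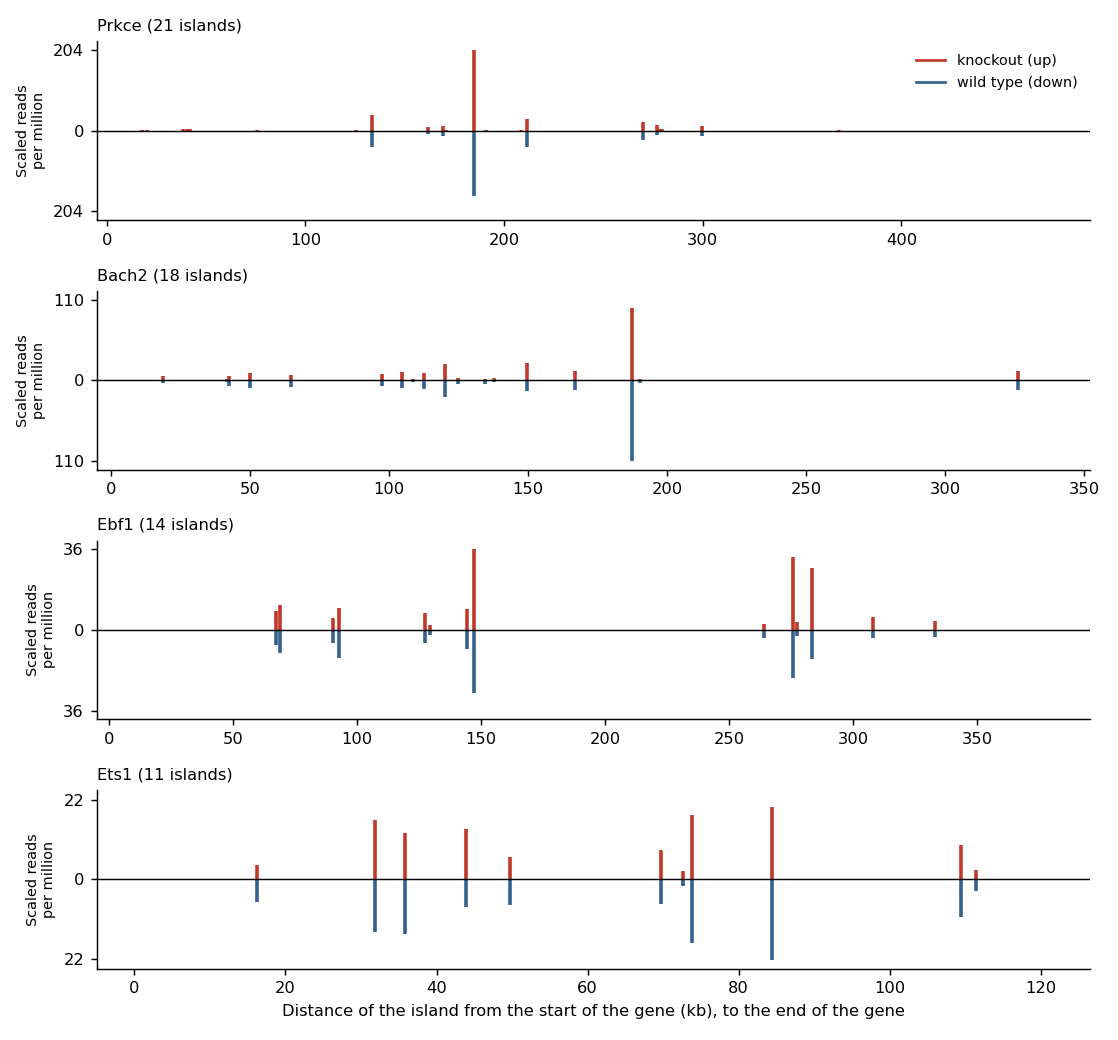
Islands along Prkce, Bach2, Ebf1 and Ets1: the x axis is the distance from the start of the gene in kb, and bars show scaled reads per 1000000 reads (RPM) of each island, upward for the knockout library and downward for wild type. In Prkce and Bach2 a single island stands far above the others in both libraries, and the 11 islands of Ets1 range from 12 to 102 knockout and 10 to 129 wild-type reads.

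The strongest island held over 50% of the reads in 3 of the 12 hosts (Prkce 50.1%, Eif4e3 52.2%, Foxp1 59.5%) and 12.9 to 42.2% in the others. In Prkce, the island at chr17:86750001-86754400, 185 kb into the gene, held 1029 knockout and 957 wild-type reads and was the strongest of all intragenic distal islands. Its ratio was 1.23 (1.12 to 1.34), and the other 20 islands of the gene held 6 to 206 knockout and 10 to 243 wild-type reads. None of the 21 was called. In Bach2, the island 188 kb into the gene at chr4:32511201-32515400 held 501 knockout and 632 wild-type reads (ratio 0.905, 0.803 to 1.02). The strongest Ets1 island, at chr9:32527401-32529000, had 18.8% of the gene's island reads, with 102 knockout and 129 wild-type reads (ratio 0.902, 0.689 to 1.18).

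Several other strong or long islands were close to the same level in both libraries. Those in Dock8 and Eif4e3 stood higher in the knockout, with intervals that excluded 1. In Foxp1, the island at chr6:99041801-99047600 held 863 knockout and 953 wild-type reads (ratio 1.03, 0.941 to 1.13). In Gramd3 the strongest island held 918 and 972 reads (ratio 1.08, 0.984 to 1.18). Dock8, a regulator of the actin cytoskeleton in lymphocytes, had an island at chr19:25126601-25130800 with 951 and 852 reads (ratio 1.27, 1.16 to 1.40). The longest islands were in Eif4e3 (7200 bp, chr6:99283601-99290800), Pik3ap1 (6400 bp, chr19:41439001-41445400) and Vav2 (6200 bp, chr2:27265001-27271200). Pik3ap1 encodes the adaptor BCAP, which links the B cell receptor to PI3K, and its island held 780 knockout and 882 wild-type reads (ratio 1.01, 0.915 to 1.11). The Vav2 island held 549 and 572 reads (ratio 1.10, 0.973 to 1.23). The Eif4e3 island alone among these was called, with 1007 knockout and 720 wild-type reads (ratio 1.60, 1.45 to 1.76). That call was lost when libraries were scaled to total reads (1.47) or to reads outside islands and promoters (1.29), and when the trends with read density and GC were removed (1.25).

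Summed over all islands, the libraries differed little; in bulk chromatin, a mark in fewer cells and a lower level per cell cannot be told apart. The knockout library held 198466 and the wild-type library 212018 reads in intragenic distal islands, a ratio of 1.07 (1.06 to 1.07). The median log2 ratio per island was -0.01, with quartiles of -0.34 and 0.30. It was 0.00 for intergenic distal islands and 0.02 for promoter islands. The mean signal at the island midpoint was 1.13 scaled reads per 1000000 (RPM) per 100 bp in the knockout and 1.11 in wild type. At 2050 bp after the midpoint it was 0.104 and 0.0926, and towards 5 kb on either side it rose to 0.165 and 0.146. Towards 5 kb from intergenic distal islands it was 0.0795 and 0.0722.

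**Figure D2:**
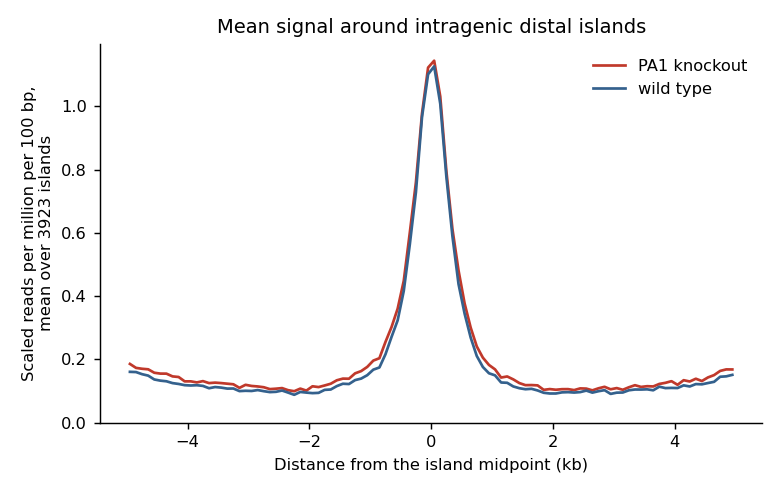
Mean signal around the midpoints of the 3923 intragenic distal islands, in scaled reads per 1000000 (RPM) per 100 bp, against the distance from the midpoint in kb for the knockout and wild-type libraries. The curves nearly coincide at the centre, with 1.13 in the knockout and 1.11 in wild type. Both curves are low around 2050 bp, with 0.104 and 0.0926 after the midpoint, and rise again towards 5 kb. There the knockout curve stands higher, with 0.165 against 0.146.

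By the calling rule, 266 intragenic distal islands were higher in the knockout library and 221 lower, while 3436 were not past it. These are 6.78% and 5.63% of the islands, beside 3.35% higher and 5.39% lower over all 24957 islands, 5.34% and 4.8% over intergenic distal islands, and 1.31% and 5.14% over promoter islands. The share called lower was thus near the background, and the share called higher was above that of all islands and closer to that of the other distal islands. The split depended on the scaling: it was 186 higher and 355 lower after scaling to total reads, and 100 and 653 after scaling to reads outside islands and promoters. Those scalings move the median of the islands to -0.12 and -0.32.

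**Figure D3:**
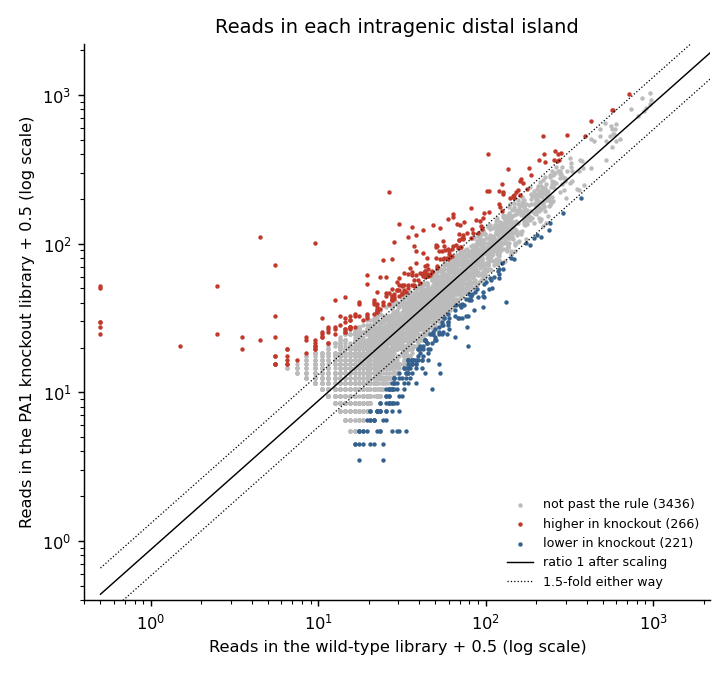
Reads of each intragenic distal island in the wild-type library (x) and the knockout library (y), both with 0.5 added and on log scales; the solid line marks equal levels after scaling and the dotted lines 1.5-fold. Red points are the 266 called higher and blue points the 221 called lower in the knockout, and 6 red points at the left edge had 0 wild-type reads.

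With scaling to promoters, the strongest islands stood higher in the knockout. Among the 464 islands with 200 or more reads, the median log2 ratio was 0.15, with 58 called higher and 11 lower. For the 788 islands with 20 to 29 reads it was -0.10, with 27 higher and 30 lower. Intergenic distal islands went from -0.08 to 0.10 over the same classes, with 54 higher and 10 lower of 697 in the strongest. Promoter islands went from -0.27 to 0.06, but with 76 higher and 123 lower of 9829 in the strongest. Scaled to total reads, the strongest intragenic class had a median of 0.04 with 44 higher and 20 lower. Scaled to reads outside islands and promoters, it had a median of -0.16 with 25 higher and 45 lower.

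Base composition moved with the ratio in every class of island. The median log2 ratio of the intragenic distal islands was 0.31 for the 260 islands under 40% GC, 0.19 at 40 to 45%, 0.02 at 45 to 50%, -0.17 at 50 to 55%, -0.35 at 55 to 60% and -0.57 for the 104 islands at 60% or more. Promoter islands went from 0.49 to -0.40 over the same classes. Of the islands called higher, 53.8% were under 45% GC, and of those called lower 7.24%, beside 31.0% of all. The 154 islands in coding exons, with a median GC of 56.1%, had a median log2 ratio of -0.27 with 10 higher and 22 lower, against 0.00 for introns. The libraries also differed in fragment length: the distance between plus- and minus-strand read ends with most pairs was 124 bp in the knockout and 146 bp in wild type, and its part in these ratios was not tested. With the trends over read density and GC removed, 209 islands were higher and 143 lower (5.33% and 3.65%), beside 2.84% and 2.39% of all islands, 4.3% and 3.05% of intergenic distal islands and 1.3% and 1.43% of promoter islands. With the GC trend alone removed, the split turned to 166 higher and 242 lower. Of the 266 and 221 called without trend removal, 188 and 128 were still called the same way with both trends removed. With the GC trend alone removed, 161 and 177 were. With both trends removed, the median of the strongest class was 0.03 in place of 0.15, with 43 islands higher and 2 lower, and with the GC trend alone removed it was 0.04.

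**Figure D4:**
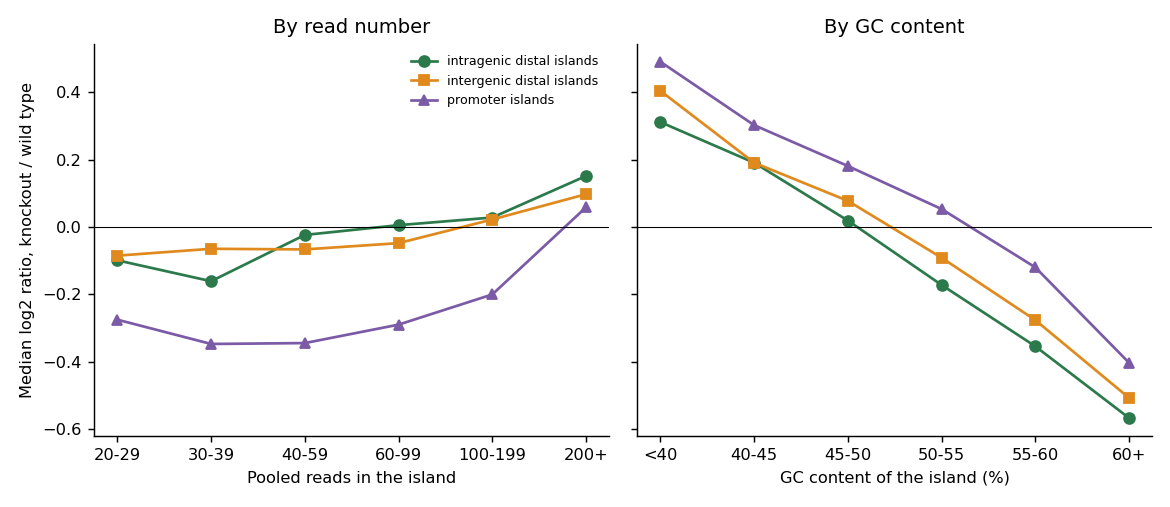
Median log2 ratio of knockout to wild type (y) for intragenic distal, intergenic distal and promoter islands, by pooled reads (left) and by GC content in percent (right). In all 3 classes the ratio is higher at 200 or more reads than at 20 to 29, and it falls with GC content, from 0.31 to -0.57 over GC classes for the intragenic distal islands.

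A small number of islands were read in the knockout library alone. A total of 6 had 0 wild-type reads, and the folds given for them are against a floor of 3 reads per library. The exact 95% intervals start lower and are given as their lower limits. Agbl4, a gene for a tubulin-modifying carboxypeptidase, held a pair of them: chr4:110579001-110579800 with 51 knockout and 0 wild-type reads (at least 19.4-fold higher, lower limit 15.2), and chr4:110345401-110345800 with 27 and 0 (at least 10.3-fold higher, lower limit 7.80). The latter is the window printed with 1 IRF and 2 RUNX matches. Ptpn3, a tyrosine phosphatase gene, had an intronic island with 50 and 0 reads (chr4:57275401-57276200, at least 19.02-fold higher, lower limit 14.9). In Frmpd1 (29 and 0), Rcan2 (29 and 0) and Tep1 (24 and 0) the folds against the floor were 11.03, 11.03 and 9.13, with lower limits of 8.41, 8.41 and 6.87. The Frmpd1 and Tep1 islands lay in coding exons.

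Further islands had few wild-type reads. Sgms1, which encodes sphingomyelin synthase, had 111 knockout and 4 wild-type reads (ratio 31.7, 12.03 to 118). In Pip4k2a, a phosphoinositide kinase gene, 3 neighbouring islands at chr2:18837801-18842400 held 111, 24 and 71 knockout reads and 34, 2 and 5 wild-type reads, and the other 6 islands of the gene were not called. Neurl1a had 221 and 26 reads (ratio 9.70, 6.45 to 15.2). In E130308A19Rik the numbers were 51 and 2, a ratio of 29.1 (7.65 to 247), which was 4.73 (2.60 to 9.18) in the longer island formed when gaps of up to 600 bp were joined. Cpeb3, named after its values were seen, had 2 neighbouring islands with 100 and 20 knockout reads against 9 and 1 in wild type.

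Many of these islands lay in stretches where the libraries differed in sequence. Positions where 3 or more reads of 1 library differed from the reference, at 80% or more of its reads there, and none of at least 3 reads of the other did, numbered 130 in the knockout and 159 in wild type, and 3 or more of them fell in 40 of 276 blocks of 10 Mb. Those blocks held 716 of the islands (18.3%), but all 6 of the islands with 0 wild-type reads and 9 of the 11 with 3 or fewer. Of the 10 named higher islands 9 lay in such blocks, all but the one in Pip4k2a, and of the 10 named lower islands 6. Within the blocks 9.22% of islands were higher and 7.96% lower, against 6.24% and 5.11% elsewhere, and a ratio of 4-fold or more in favour of the knockout was seen in 14 islands inside and 8 outside. Around the midpoint of the Agbl4 island with 51 and 0 reads, the nearest wild-type reads on either side were 7.05 kb apart, and the 5 kb to each side of it held 26 knockout and 2 wild-type reads. The part of these sequence differences in the counts was not tested. Without those blocks, 200 islands were higher and 164 lower.

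Islands lower in the knockout had smaller differences. The one farthest from 1 by its bound lay in Rnf157, a ubiquitin ligase gene, at chr11:116256001-116256400, with 5 knockout and 33 wild-type reads (ratio 0.173, 0.0527 to 0.446). Plek, which encodes pleckstrin, a substrate of protein kinase C, had 3 and 24 reads (ratio 0.143, 0.0275 to 0.470). Sbk1 had 20 and 78 reads and Map4k1, a kinase gene of lymphocyte receptor signalling, 10 and 47. Dedd2 had 40 and 132 reads (ratio 0.346, 0.236 to 0.496). The others named by the rule lay in Sumf1 (5 and 30), Pxk (5 and 29), Pstpip1 (13 and 53), Camk4 (4 and 24) and Rasgrp3 (5 and 27). No island had 0 knockout reads, and only 2 had 3 or fewer. The named lower islands spanned 41.0 to 60.3% GC.

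Among the 12 hosts with most islands, 15 of 191 islands were called higher (7.85%) and 4 lower (2.09%), beside 6.78% and 5.63% of all intragenic distal islands. Summed over a gene, the ratios ran from 0.946 (0.876 to 1.02) in Bach2, with 1218 knockout and 1469 wild-type reads, to 1.30 (1.17 to 1.43) in Ebf1, with 834 and 734. In Ebf1, 2 islands 276 and 284 kb into the gene were higher, with 165 and 139 knockout against 124 and 74 wild-type reads. Foxp1 had calls in both directions: 144 against 87 and 96 against 37 reads in a pair of neighbouring islands, and 5 against 18 and 11 against 38 in 2 others. Camk2d had a single called island, with 43 and 14 reads (ratio 3.51, 1.88 to 6.94), while its other 10 lay between 0.702 and 1.25. The sums for Hivep2 (0.963), Ets1 (1.01), Tcf4 (1.03), Prkce (1.06) and Arid1b (1.07) were near 1.

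**Figure D5:**
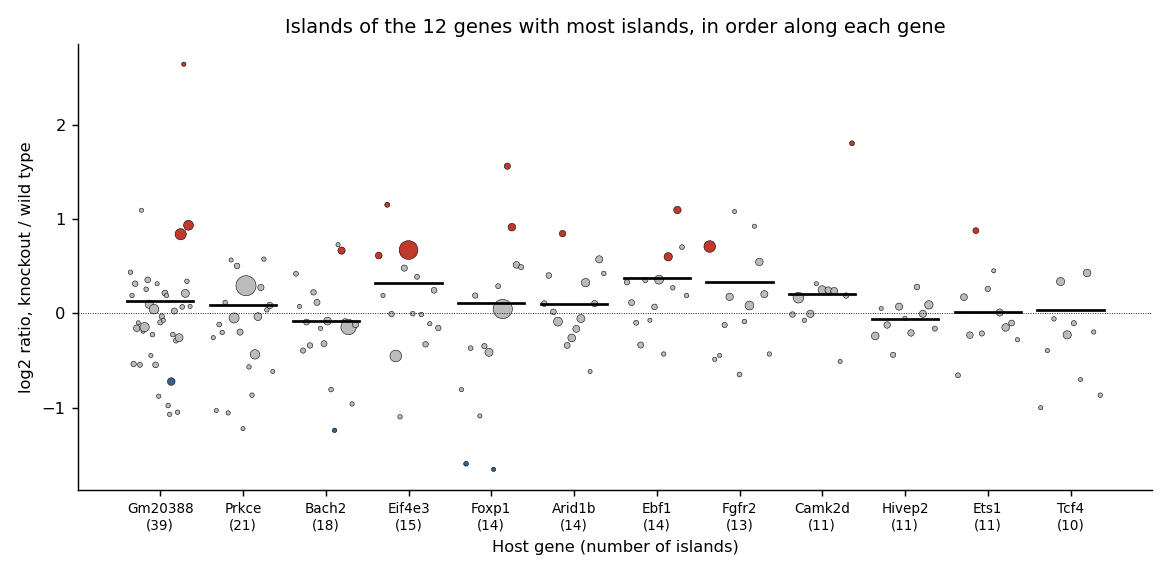
Log2 ratio of knockout to wild type (y) for each island of the 12 host genes with most islands (x), in order from the start of each gene. Point size grows with pooled reads, red and blue mark islands called higher and lower, and the bar is the ratio of summed reads. In 9 of the 12 genes at least 1 island is red, in 3 at least 1 is blue, and all sums lie within 1.5-fold of 1.

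Several hosts held more than 1 called island, and these were named after their values were seen. There were 38 hosts with 2 or more higher islands, 19 with 2 or more lower and 14 with calls in both directions. Only hosts with 2 or more islands could count: 372 had 2, 284 had 3 or 4 and 134 had 5 or more. Of all intragenic distal islands, 6.78% were higher and 5.63% lower. Whether calls gathered within genes beyond these shares was not tested. In Ppp3cc, which encodes a catalytic subunit of calcineurin, 4 of 5 islands were higher, with 142, 24, 96 and 223 knockout against 92, 10, 63 and 126 wild-type reads; their GC content was 36.3 to 41.1%, and with the trends removed their ratios were 1.47, 2.10, 1.49 and 1.69, 2 of them short of 1.5-fold. St6gal1, the sialyltransferase that makes CD22 ligands, had 3 of 7 higher, led by chr16:23307401-23311000 with 527 against 218 reads (ratio 2.76, 2.35 to 3.25). St3gal6, another sialyltransferase gene, had 3 of 5 higher, 1 of which came to 1.37 with the trends removed. In the opposite direction stood Coro2a, a coronin gene, with 3 of 7 lower (15 against 52, 58 against 119 and 111 against 213 reads), and Vav2, Zmiz1 and Rapgef1 with 3 each; 1 island each of Zmiz1 (0.691) and Rapgef1 (0.707) fell short of 1.5-fold with the trends removed. All 3 islands of Ryr1 were lower, with 118 against 225 reads in sum, and they lay in a block with sequence differences, as did those of Coro2a. With the density and GC trends removed, the Ryr1 ratios were 0.614, 0.755 and 0.685, so 2 of the 3 no longer reached 1.5-fold.

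The ratios at promoters and islands of the same gene were also set side by side. Over 1238 hosts with 50 or more reads at the promoter and in their islands, the correlation of the log2 ratios across genes was 0.08 (Pearson) and 0.08 (Spearman); genes are not independent replicates, and both values come from the same libraries. Of these 1238 hosts, 8 had a promoter called higher and 81 a promoter called lower. Over all promoter islands, a related but different set of regions, the shares were 1.31% and 5.14%. Of 93 hosts whose summed islands were higher, 1 had a promoter called higher (Pou2f1, the OCT1 gene, with 258 against 189 promoter reads) and 5 a promoter called lower. Among these 5 was Trp73, with 300 against 132 island reads and 93 against 175 promoter reads. Of 66 hosts whose islands were lower, 7 had a lower promoter and 1 a higher one (Asb2, with 45 against 19 promoter reads). Of the 7, Coro2a was the one with most islands, with 134 against 315 promoter reads (ratio 0.486, 0.394 to 0.596).

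Lists of genes showed where the islands were. Of 30 B lineage transcription factor genes, 23 were hosts, with 116 islands or 33.5 per Mb of gene, against 3.94 per Mb over all protein-coding genes. B cell receptor signalling genes had 24 hosts of 30 and 91 islands (27.5 per Mb), genes of the lymphocyte cytoskeleton and migration 21 hosts and 55 islands (13.8 per Mb), LPS and NF-kB response genes 10 hosts and 17 islands (16.5 per Mb), and class switch and plasma cell genes 5 hosts and 10 islands (6.36 per Mb). By contrast, 30 long genes of neurons and muscle had 3 hosts and 4 islands in 36193 kb (0.111 per Mb). None of 18 myeloid marker genes was a host. Of the T cell markers, Cd247, which encodes the zeta chain of the T cell receptor complex, held 3 islands (204 knockout and 233 wild-type reads in sum), with 1 read in each library at its promoter. Of the long genes, Dlg2 held 1 island (41 and 49 reads), Cntnap2 held 2 (34 and 40), and Galntl6 held 1 (112 and 105) with promoter counts of 2 and 1.

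In the B lineage list, 8 of 116 islands were higher (6.90%) and 6 lower (5.17%), beside 6.78% and 5.63% of all intragenic distal islands, with a median log2 ratio of -0.01, the same as over all intragenic distal islands. Pou2af1, the coactivator OBF-1, had the list's highest ratio, with 274 knockout against 215 wild-type reads (1.45, 1.21 to 1.75). Mef2c had 696 against 658 (1.21, 1.08 to 1.34) and Fli1 1026 against 921 (1.27, 1.16 to 1.39). Pax5, the factor that maintains B cell identity, stood lower, with 121 against 205 reads (0.674, 0.534 to 0.847), nearly all in the island at chr4:44683401-44687600 with 108 against 195. That island lay in a block with sequence differences, and its ratio with the density and GC trends removed was 0.711, short of 1.5-fold. Runx3 had 93 against 169 (0.628, 0.482 to 0.814) and Runx1 the list's lowest ratio, from a single island of 8 against 17 reads (0.537, 0.201 to 1.31). Prdm1, the plasma cell factor Blimp-1, held an island with 167 against 158 reads (1.21, 0.965 to 1.51), and Irf4 one with 215 against 207 (1.19, 0.975 to 1.44). Among class switch and plasma cell genes, Pou2f1 had the highest ratio (124 against 80 reads, 1.77, 1.32 to 2.37) and Batf, an AP-1 family factor needed for class switching, the lowest (181 against 286, 0.722, 0.596 to 0.873).

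For B cell receptor signalling, 5 of 91 islands were higher (5.49%) and 8 lower (8.79%), beside the same 6.78% and 5.63%. Vav2 (669 against 805 reads), Itpr1 (306 against 314) and Pik3ap1 (1885 against 2146) held 7 islands each, and with Prkcb (9 islands, 472 against 530) all had summed ratios between 0.948 and 1.11. Ptk2b, a tyrosine kinase gene, was also a host of 7, with 1043 against 807 reads (1.48, 1.34 to 1.62). Cd22, an inhibitory coreceptor, had the list's lowest ratio, with 32 against 76 reads (0.481, 0.308 to 0.735), and Dapp1 the highest, with 51 against 37 (1.57, 1.01 to 2.47). The single Cd22 island lay in a block with sequence differences and had 54.7% GC. Its ratio with the density and GC trends removed was 0.551.

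In the cytoskeleton list, 3 of 55 were higher (5.45%) and 1 lower (1.82%), beside 6.78% and 5.63% of all intragenic distal islands. Cd44, the hyaluronan receptor, had the highest ratio, with 169 against 63 reads (3.06, 2.28 to 4.16), from the island at chr2:102703801-102705600 with 134 against 30, and its other 2 islands were not called. Myo1e held 8 islands (596 against 506 reads), Elmo1 6 (390 against 370) and Dock2, a Rac activator of lymphocytes, 4 (346 against 308). The lowest ratio was that of Itgb2, an integrin gene, from 1 island of 14 against 29 reads (0.551, 0.269 to 1.08). The LPS and NF-kB list had 0 higher and 4 lower of 17 (23.5% lower, beside 5.63% of all intragenic distal islands), including islands of Cd86 (7 against 22 reads), a costimulatory ligand, and Tnip1 (15 against 36), an inhibitor of NF-kB signalling. Its median log2 ratio was -0.33 against -0.01 over all intragenic distal islands, and Irak3, the host with most, had 97 against 122 reads (0.907, 0.688 to 1.19). Traf5 had 264 against 342 (0.881, 0.747 to 1.04), with 1 of its 2 islands called lower. Irak2 had the highest ratio, with 354 against 347 (1.16, 1.001 to 1.35), although 1 of its 2 islands was called lower. The shares of this list rest on 17 islands of 10 hosts. Its reads in sum were 1078 against 1319 (0.933, 0.860 to 1.01).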

How the data were processed

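Chromatin immunoprecipitation reads of 2 libraries (1 PA1 knockout, 1 wild type) were used. The deposited files list read positions, as start and end columns with other values, 1 line per read of 25 bases; per the labels the build is mm9, and SICER is named in the submitters' processing notes. No source used here names the aligner. Sites hold at most 1 read per strand. Islands were called on the pooled reads as described in the report, with Python 3.11.15, numpy 2.4.6, scipy 1.17.1, pandas 2.3.3 and statsmodels 0.14.6, and the code was tested on simulated data. Libraries were scaled by TMM, the trimmed mean of log ratios (30% trimmed by ratio and 5% by level, factor 0.923 on read depth), over 12186 of 22367 promoter windows (1 kb either side of 1 TSS per gene) with 50 or more reads. Log2 ratios used 0.5 added reads. Ratios have exact conditional binomial intervals. PCR (18 cycles) reads are not independent molecules. The knockout and wild-type depths of 5260401 and 5539549 reads in the files set the precision. The trend over read density and GC was a lowess fit (span 0.3) over all islands.

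Named were the 12 genes with most islands (ties by pooled reads), the 5 islands with most reads, the 3 longest, the 10 higher and 10 lower by the interval bound nearest 1, of each gene list the 3 hosts with most islands and those with the highest and lowest ratio, and the islands nearest the thresholds. Other genes named were chosen after their values were seen. The islands and gene lists were chosen with earlier results of these data known. Some listed genes are not reported here.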

Additional observations from a re-analysis of the deposited data

How the results depend on the processing

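With 1 library per genotype, depth limits the weak islands: 1712 of 3923 held fewer than 50 reads, and 582 had a ratio of 1.5-fold or more in either direction with an interval that held 1. No paired analysis was possible because each genotype had 1 library. Scaled to total reads, 355 intragenic distal islands were lower, and the median log2 ratios were -0.12 (intragenic), -0.12 (intergenic) and -0.10 (promoter). Scaled to reads outside islands and promoters, 100 were higher and 653 lower, with medians of -0.32, -0.31 and -0.30. TMM over all islands put the promoter median at 0.0066. With density and GC trends removed 143 were lower. Removing the GC trend alone, chosen after seeing the data, left 166 higher and 242 lower, with medians of -0.10, -0.066 and 0.057. Windows of 12 or more reads gave a median of 0.012. With 50 or more reads required, 2211 islands remained, 125 lower, with medians of 0.041, 0.030 and 0.026. Over 10 kb from every TSS, 144 were lower. These fewer islands follow from the stricter rules, and for the other changes the cause was not tested. Per 100 kb, 1 of the 12 hosts with most islands was among the densest. Leaving out chromosome 7, no shift, 7-read windows, 600 bp gaps and thinning the wild-type library kept every count within 1.5 times. Leaving out the blocks with sequence differences, also chosen after seeing the data, did so too. For the 27 named islands, 329 ratios under other settings stayed on their side of the rule and 4, all of the Eif4e3 island, did not. The 10 higher and 10 lower of the named islands were chosen for intervals far from 1. Rescaling could thus hardly move them across the rule, and the count is no check of the other islands. Another 45 ratios had no value, since the island was not kept or no longer counted as intragenic distal under that setting: 16 without the blocks, 10 with 50 or more reads, 7 with 12-read windows, 6 over 10 kb, 3 without chromosome 7 and 1 each with no shift, 7-read windows and 600 bp gaps. Joining gaps took the E130308A19Rik ratio from 29.1 to 4.73, and no shift took that of Sumf1 from 0.190 to 0.118.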

Other observations

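Some islands lay in genes whose own promoter held almost no signal, and the genes named here were chosen after their values were seen. Gnat3, which encodes the taste G protein gustducin, held 3 islands with 452 knockout and 289 wild-type reads in sum (ratio 1.78, 1.54 to 2.08), of which 2 were called higher, while its promoter held 1 read in each library. Agbl4 held 4 islands, 3 of them called higher, with 10 and 6 promoter reads. Hdac4 held 2 islands, both called lower, with 24 against 58 reads in sum, and 1 and 2 reads at the promoter window used.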
